A study of Mus musculus with 5 samples.

Results

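The 10 genes described here, H19, Igf2, Igf2r, Dlk1, Meg3, Mest, Grb10, Peg3, Plagl1 and Ndn, are imprinted genes linked to fetal growth and muscle. They were taken by name from the 25873 named genes of the deposited table. All 10 were found, and all 10 passed the filter, an average of 1 RPKM or more (reads scaled to gene length and library size). An imprinted gene is read mainly from the copy inherited from 1 parent: Igf2, Dlk1, Mest, Peg3, Plagl1 and Ndn from the father's copy, and H19, Meg3, Igf2r and, in most tissues, Grb10 from the mother's. IGF2 is a growth factor of fetal muscle, IGF2R removes it from the cell surface, and GRB10 damps signalling through the insulin and IGF1 receptors. DLK1 is a membrane protein related to the Notch ligands that lacks their receptor-binding DSL domain. The values do not separate the parental copies, so imprinting itself was not measured.

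The cells were tdTomato-positive, lineage-negative cells sorted from limb muscle of C57BL/6J mouse fetuses at E16.5. Every group carried a Pax7-CreER allele and the Rosa-tdTomato reporter, and every pregnant mother was given oral tamoxifen (240 mg per kg) over 2 days starting at E12.5. The wild-type (WT) group had no floxed Notch allele and holds 2 libraries, Em2 and Em4. The Notch1 cKO group added homozygous floxed Notch1 alleles and holds 1 library, Em8. The Notch2 cKO group added homozygous floxed Notch2 alleles and holds 2 libraries, Em3 and Em4. Values below are given in the order Em2, Em4 for WT and Em3, Em4 for Notch2 cKO. The tags are those of the deposited columns, and a shared tag (Em4) is not stated to mark a shared litter. Recombination reaches only cells in which Pax7 is or was active, and the labels do not say whether fetuses were pooled or whether replicates came from separate fetuses. The p-values therefore measure the spread between these libraries only, taken mostly from all genes together.

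Library totals recovered from the RPKM steps ran from 20740000 to 28830000 reads, and each of the 10 genes rested on 2393 to 69655 reads per library. Notch2 cKO Em3, with the lowest total, stood apart in having 12.7% of named genes at 0, against 24.5% to 31.7% in the other libraries. Without it no member passed in any comparison, and in Notch2 cKO against WT Plagl1 was 1.2, Peg3 1.02, H19 −1.0 and Meg3 −0.89 (log2 fold changes). Notch1 stood at 2.33 RPKM in Notch1 cKO Em8 against 7.26 and 13.5 in WT, while Notch2, at 3.35 and 2.03 RPKM in Notch2 cKO against 2.40 and 4.17 in WT, overlapped with WT. Gene-level values pool all exons, so they do not check the Notch2 label. All 16 muscle lineage markers were above 0 in every library, with summed levels of 4186 to 6956 RPKM. Interstitial fibroblast markers summed to 208 and 350.3 RPKM in WT, 456 in the Notch1 cKO group, and 313 and 468 in the Notch2 cKO group, led by the collagen gene Col3a1 (61.7 to 183 RPKM). All 18 of them were above 0 in every library. All 14 tendon and cartilage markers were above 0 in every library. They summed to 233 RPKM in Notch2 cKO Em4 and to 54.4 to 82.7 in the other libraries. Scx had the highest mean of the list (30.5 to 37.9 RPKM). It read 31.3 RPKM in Notch2 cKO Em4, within its range elsewhere, so the larger sum there came from other genes of the list. Endothelial markers, led by Egfl7, summed to 21.7 to 40.9 RPKM. Haematopoietic markers, led by Cd68, summed to 12.1 to 20.4 RPKM, with Ptprc (CD45) at 0 in WT Em2. Their sum was highest in Notch2 cKO Em4, where Cd68 was lowest (5.13 RPKM). Pericyte and smooth muscle markers, led by Acta2, summed to 449.5 to 603 RPKM. Erythroid markers, led by Hba-a2, summed to 981 and 1224 RPKM in WT, 1749 in the Notch1 cKO group, and 521 and 450.1 in the Notch2 cKO group, with Slc4a1 at 0 in Notch2 cKO Em4. In Notch2 cKO against WT 3 of the 6 erythroid markers tested passed, all lower, and 2 of 12 heat-shock and immediate early genes, higher (their sum was 1665 to 2451 RPKM in 4 libraries and 3247 in Notch2 cKO Em3). All 12 tendon and cartilage markers tested were above 0 in that comparison (median log2 fold change 0.85 beside 0.14 for all genes), as were 11 of 14 fibroblast markers (median 0.58), and none of either list passed. In Notch1 cKO against WT all 14 fibroblast markers tested were above 0 (median 0.78 beside 0.01), and 1 passed. Relative to Notch1 cKO, Notch2 cKO had 4 of 6 erythroid markers, 1 of 14 fibroblast markers and 1 of 12 heat-shock genes past the threshold as lower, and 1 of 12 tendon and cartilage markers as higher. Several imprinted genes are also active in fibroblasts and cartilage, and the part that such cells had in the values below was not tested. The same holds for erythroid RNA and the heat-shock genes. A smaller share of a cell type and less RNA per cell cannot be told apart in these bulk samples.

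The imprinted genes were among the more abundant transcripts of these cells. By mean level they ran, in RPKM, from H19 (769) and Mest (702) through Dlk1 (335), Igf2 (297), Ndn (139), Grb10 (129), Plagl1 (59.2), Peg3 (51.8) and Meg3 (42.7) to Igf2r (15.7). H19 ranked 128 and Mest 148 of the 11543 genes tested, and the least abundant, Igf2r, ranked 4462. Together the 10 genes took 0.712% and 1.02% of the reads in the WT libraries, 1.08% in the Notch1 cKO library and 0.847% and 0.874% in the Notch2 cKO libraries. Neighbours in this order often changed places between libraries. H19 was above Mest in 4 libraries and below it in Notch2 cKO Em4. Igf2 was above Dlk1 in WT Em2 and Notch1 cKO Em8 only. Plagl1, Peg3 and Meg3 took a different order in WT Em2, WT Em4 and Notch2 cKO Em3. The gaps between H19 and Mest, Dlk1 and Igf2, Ndn and Grb10, and among Plagl1, Peg3 and Meg3 were thus within the spread of the libraries, whereas Igf2r was the lowest of the 10 in every library.

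**Figure D1:**
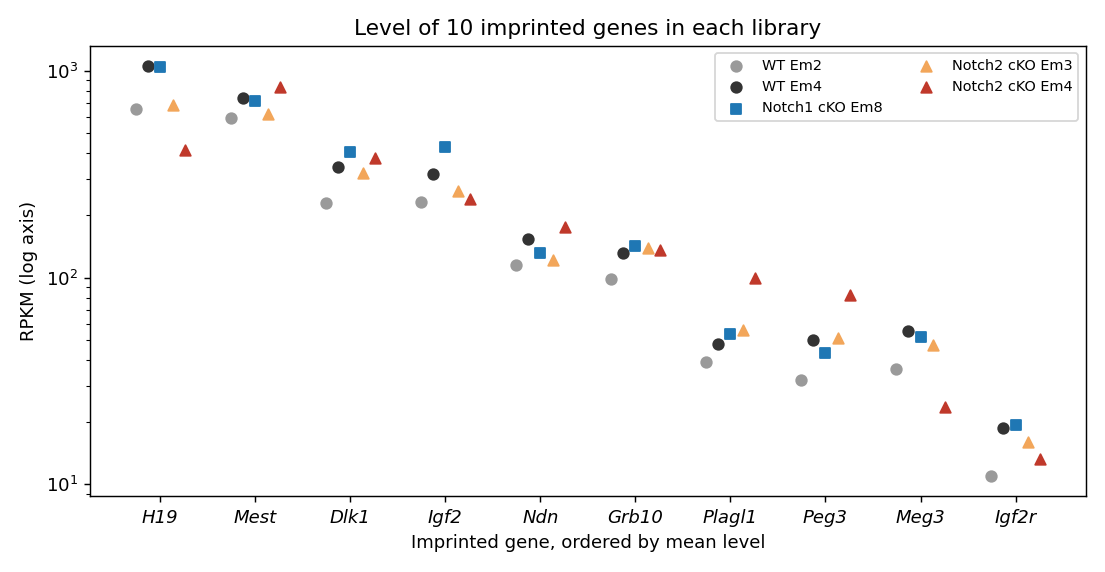
Level of each of the 10 imprinted genes in each of the 5 libraries, in RPKM on a log axis, with genes ordered by their mean. Circles are WT, squares Notch1 cKO and triangles Notch2 cKO libraries, and each symbol is a single library. H19 and Mest are highest and Igf2r lowest, and Notch2 cKO Em4 stands below the other libraries for H19 (413 RPKM) and Meg3 (23.7 RPKM) and above them for Plagl1 (100.2 RPKM) and Peg3 (82.7 RPKM).

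None of the 10 genes passed the test in any comparison. In limma on log2(RPKM + 1), with Benjamini-Hochberg adjustment over 11543 genes and a threshold of 0.05, 0 of 10 passed in Notch2 cKO against WT, where 0.537% of all genes did (41 higher, 0.355%, and 21 lower, 0.182%), 0 of 10 in Notch1 cKO against WT (0.0693% of all genes, 0.0433% higher and 0.026% lower), and 0 of 10 in Notch2 cKO against Notch1 cKO (0.485% of all genes, 0.277% higher and 0.208% lower). Median-of-ratios scaling gave 14 higher and 12 lower calls in Notch2 cKO against WT and 14 and 18, in place of 32 and 24, in Notch2 cKO against Notch1 cKO. It also moved the all-gene median in Notch2 cKO against WT from 0.14 to 0.00 (log2). Relative to the unscaled median, the members ran from −0.78 (H19) and −0.55 (Meg3) to 0.54 (Peg3) and 0.64 (Plagl1). At an unadjusted p under 0.05 the counts were 3, 0 and 2 of 10, beside 7.63%, 1.85% and 8.66% of all genes. Limma voom on the recovered reads also called 0 of 10 in each comparison. The 3 comparisons share libraries, so their fold changes are not independent of each other. Because Notch1 cKO has a single library, its spread was taken to equal that of the other groups. Each gene's spread was drawn mostly from a trend over all genes (103.8 prior against 2 residual degrees of freedom). The SEs and intervals thus say little of a gene's own spread between libraries.

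**Figure D2:**
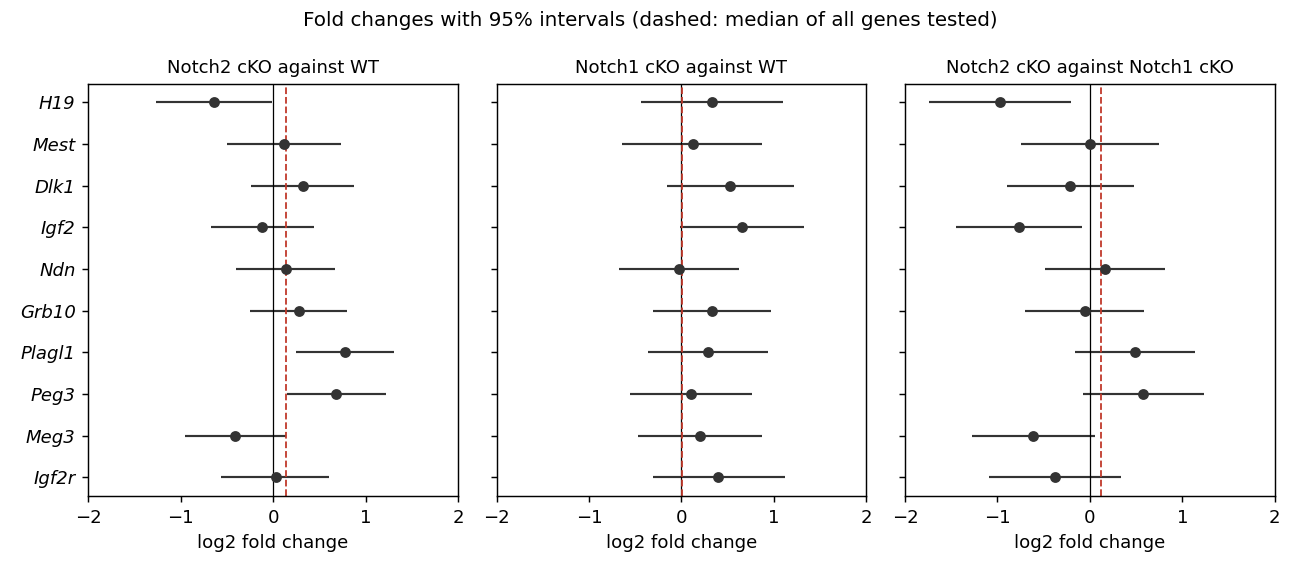
Log2 fold change of each imprinted gene, on the log2(RPKM + 1) scale, in the 3 comparisons. Points are limma estimates, bars their 95% intervals before any correction for multiple tests, and the dashed line the median of all genes tested (0.14, 0.01 and 0.12). Plagl1 and Peg3 lie to the right and H19 to the left in Notch2 cKO against WT, and H19 and Igf2 lie to the left in Notch2 cKO against Notch1 cKO, but no adjusted p was below 0.05.

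The growth factor gene and its neighbour come first. Igf2 (ENSMUSG00000048583.16) lies on chromosome 7, 142650766 to 142666816 on the minus strand of GRCm38, and H19 (ENSMUSG00000000031.16), a long non-coding RNA, lies in the same imprinted domain at 142575529 to 142578143 on the same strand. H19 is the host of a microRNA, miR-675, whose mature forms are shown because its sequence lies inside the H19 gene; capitals mark the seed, bases 2 to 8 of each, and the sequences are those of RefSeq on GRCm38.p6, chr7:142577112-142577133 and chr7:142577078-142577099, minus strand.
miR-675-5p: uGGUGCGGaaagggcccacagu
miR-675-3p: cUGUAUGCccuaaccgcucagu
The seeds of the pair differ. The mature forms were not measured, and the deposited row for the hairpin was listed at 0 in all 5 libraries.

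H19 gave 652 and 1053 RPKM in the WT libraries, 1043 in the Notch1 cKO group, and 685 and 413 in the Notch2 cKO group. The Notch1 cKO library fell between the WT libraries, the Notch2 cKO pair overlapped WT through Em3, and only Em4 lay below all others. The WT mean was 852 ± 284 RPKM (SD, n = 2) and the Notch2 cKO mean 549 ± 192 RPKM (SD, n = 2). The difference, a log2 fold change of −0.64 (SE 0.32, 95% interval −1.27 to −0.01, unadjusted p = 0.0473, limma adjusted p = 0.651), did not pass, and it was −0.27 without Notch2 cKO Em4 and −1.0 without Em3. In Notch1 cKO against WT it was 0.33 (SE 0.39, limma adjusted p = 1), but −0.01 without WT Em2. Notch2 cKO against Notch1 cKO gave the lowest log2 fold change among the members in any comparison, −0.97 (SE 0.39, limma adjusted p = 0.428).

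Igf2 measured 232 and 319 RPKM in WT, then 429 in the Notch1 cKO library and 264 and 239 in the Notch2 cKO libraries. Notch1 cKO Em8 was the highest library, and the Notch2 cKO libraries lay between the WT libraries. In Notch1 cKO against WT the log2 fold change was 0.65 (SE 0.34, 95% interval −0.02 to 1.33, limma adjusted p = 1), or 0.43 without WT Em2 and 0.88 without WT Em4. For Notch2 cKO against WT the value was −0.12 (SE 0.28, interval −0.67 to 0.44, limma adjusted p = 0.943), turning to 0.11 without WT Em4. In Notch2 cKO against Notch1 cKO it was −0.77 (SE 0.34, limma adjusted p = 0.512). Reads from Igf2os, an antisense gene that shares 7124 bases of its span with Igf2, and from the overlapping gene model Gm49394 cannot be told apart from Igf2 here, since the library kit does not mark strand and the counting rule was not stated in the labels.

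Igf2r, the clearance receptor (ENSMUSG00000023830.14, chromosome 17, 12682406 to 12769664, minus strand), had the lowest level, with 11 and 18.7 RPKM in the WT pair, 19.3 in the Notch1 cKO library, and 16.0 and 13.3 in the Notch2 cKO pair. WT Em2 was the lowest library, and the WT pair spanned both Notch2 cKO values. Its log2 fold changes were 0.03 (SE 0.29) in Notch2 cKO and 0.40 (SE 0.36) in Notch1 cKO against WT, with limma adjusted p = 0.987 and 1. The first was −0.33 without WT Em2, 0.38 without WT Em4 and −0.13 with median-of-ratios scaling. The second was 0.04 without WT Em2 and 0.76 without WT Em4. Airn, the antisense RNA that shares 28354 bases of its span with Igf2r, read 14.9 and 16.9 RPKM in the WT pair, 21.3 in the Notch1 cKO library, and 18.0 and 11.1 in the Notch2 cKO pair.

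Grb10 (ENSMUSG00000020176.17, chromosome 11, 11930508 to 12038683, minus strand) gave 98.1 and 131 RPKM in the WT libraries, 143 in the Notch1 cKO group, and 139 and 136 in the Notch2 cKO group. All 3 knockout libraries were above both WT libraries, by a margin smaller than the gap between the WT pair. The Notch2 cKO libraries were close together, with a mean of 137 ± 2.22 RPKM (SD, n = 2) against 115 ± 23.2 in WT (SD, n = 2). The log2 fold changes of 0.28 (SE 0.26, limma adjusted p = 0.833) in Notch2 cKO and 0.33 (SE 0.32, limma adjusted p = 1) in Notch1 cKO did not pass. Without WT Em2 they were 0.07 and 0.12, and without WT Em4 0.48 and 0.54.

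Plagl1 and Peg3 had the highest log2 fold changes of the 10 genes in Notch2 cKO against WT, and both were highest in Notch2 cKO Em4. PLAGL1 (ZAC1) is a zinc-finger transcription factor that regulates other imprinted genes, and PEG3 is a large zinc-finger protein. Plagl1 (ENSMUSG00000019817.18, chromosome 10, 13060504 to 13131694, plus strand) measured 39.2 and 47.6 RPKM in WT, then 53.1 in the Notch1 cKO library and 55.9 and 100.2 in the Notch2 cKO libraries. The knockout libraries were all above WT, with Notch2 cKO Em4 well apart from the rest. The mean was 43.4 ± 5.95 RPKM in WT and 78.0 ± 31.4 RPKM in Notch2 cKO (SD, n = 2 each). Against WT, Notch2 cKO gave a log2 fold change of 0.78 (SE 0.27, 95% interval 0.25 to 1.31, unadjusted p = 0.00443, limma adjusted p = 0.289). It was 0.36 without Notch2 cKO Em4, and over the alternatives the adjusted p was at least 0.0702, reached without Notch2 cKO Em3. For Notch1 cKO against WT it was 0.29 (SE 0.33, limma adjusted p = 1).

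Peg3 (ENSMUSG00000002265.16, chromosome 7, 6703892 to 6730431, minus strand) read 32.1 and 50.2 RPKM in the WT pair, 43.1 in the Notch1 cKO library, and 51.0 and 82.7 in the Notch2 cKO pair. Notch2 cKO Em3 was level with WT Em4, so the lack of overlap rested on a margin of under 1 RPKM. The mean was 41.1 ± 12.8 RPKM in WT and 66.9 ± 22.4 RPKM in Notch2 cKO (SD, n = 2 each), and the highest library was 2.58 times the lowest, the widest range of the 10 genes. Against WT, Notch2 cKO gave a log2 fold change of 0.68 (SE 0.27, 95% interval 0.15 to 1.22, unadjusted p = 0.013, limma adjusted p = 0.466), and 0.34 without Notch2 cKO Em4. Against WT, Notch1 cKO gave 0.10 (SE 0.33, limma adjusted p = 1), turning to −0.22 without WT Em2. Usp29, which starts beside Peg3 on the other strand, gave 1.74 and 1.64 RPKM in the WT libraries, 1.83 in the Notch1 cKO group, and 1.76 and 1.31 in the Notch2 cKO group, with its lowest value in Notch2 cKO Em4. Zim1, another neighbour of Peg3, read 2.94 and 4.36 RPKM in the WT pair, 4.90 in the Notch1 cKO library, and 4.49 and 5.48 in the Notch2 cKO pair, with its highest value in Notch2 cKO Em4, as for Peg3.

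Of the 10 genes, Grb10, Peg3 and Plagl1 were higher in both Notch2 cKO libraries than in both WT libraries (3 of 10, beside 28.3% of all genes tested), and 0 of 10 were lower in both (9.44% of all genes). Notch1 cKO Em8 was above both WT libraries for 5 of 10 genes, Igf2, Igf2r, Dlk1, Grb10 and Plagl1 (24.3% of all genes), and below both for 0 of 10 (26.1%). All 10 genes were higher in WT Em4 than in WT Em2, as were 69.2% of all genes, with log2 differences of 0.27 (Plagl1) to 0.72 (Igf2r) beside an all-gene median of 0.20. WT Em2 was the lowest library for 8 of 10, beside 41.5% of all genes, and Notch2 cKO Em4 for H19 and Meg3 (19.9%). WT Em4, Notch1 cKO Em8 and Notch2 cKO Em3 were lowest for 0 of 10 (8.83%, 21.4% and 8.36%). The highest library was Notch1 cKO Em8 for 4 of 10, Igf2, Igf2r, Dlk1 and Grb10 (11.9% of all genes), Notch2 cKO Em4 for Mest, Peg3, Plagl1 and Ndn (33.3%), and WT Em4 for H19 and Meg3 (16.7%). WT Em2 and Notch2 cKO Em3 were highest for 0 of 10 (12.7% and 25.4%). Both Notch2 cKO libraries were above Notch1 cKO Em8 for 2 of 10, Peg3 and Plagl1 (47.7% of all genes), and below it for 6 of 10 (25.2%).

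**Figure D3:**
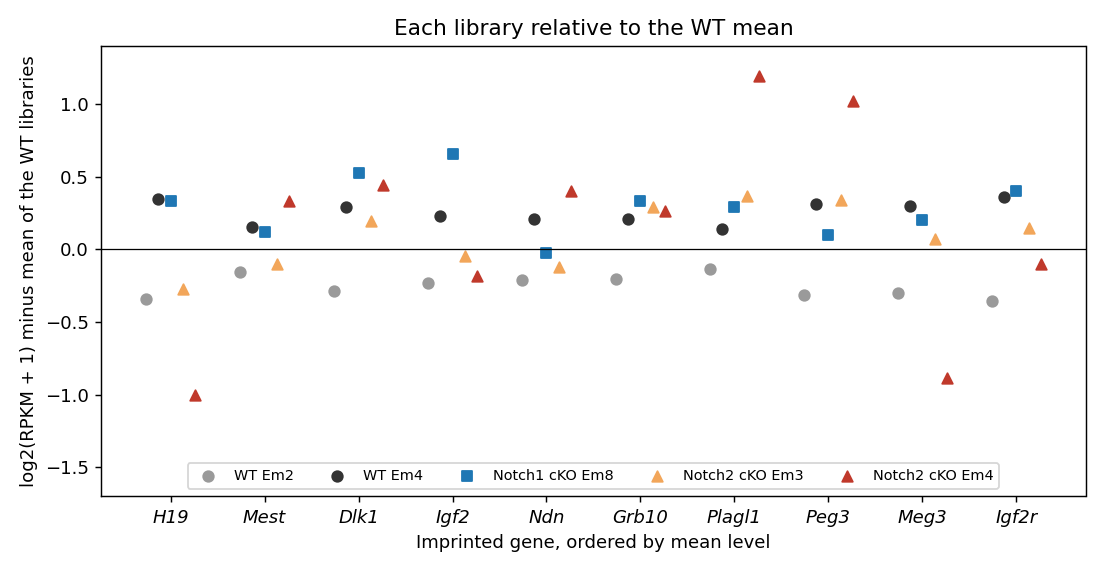
Each library's log2(RPKM + 1) minus the mean of the WT libraries, for the 10 imprinted genes. Circles are WT, squares Notch1 cKO and triangles Notch2 cKO libraries, and the line at 0 is the WT mean. WT Em2 lies below WT Em4 for every gene, and Notch2 cKO Em4 lies lowest for H19 and Meg3 and highest for Plagl1 and Peg3.

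The Dlk1 and Meg3 domain on chromosome 12 follows. Dlk1 (ENSMUSG00000040856.17, 109452823 to 109463336, plus strand) measured 229 and 342 RPKM in WT, then 404 in the Notch1 cKO library and 320.2 and 381 in the Notch2 cKO libraries. Notch1 cKO Em8 was the highest library and WT Em2 the lowest, and the Notch2 cKO pair lay around WT Em4. The log2 fold changes of 0.32 (SE 0.28, 95% interval −0.24 to 0.88, limma adjusted p = 0.823) in Notch2 cKO and 0.53 (SE 0.35, interval −0.16 to 1.22, limma adjusted p = 1) in Notch1 cKO against WT did not pass. Without WT Em2 they were 0.03 and 0.24. Meg3, the long non-coding RNA (ENSMUSG00000021268.17, 109541001 to 109571726, plus strand), read 36.1 and 55.3 RPKM in the WT pair, 51.5 in the Notch1 cKO library, and 47.0 and 23.7 in the Notch2 cKO pair. Only Notch2 cKO Em4 lay outside the WT range, below it. For Meg3, Notch2 cKO against WT gave a log2 fold change of −0.41 (SE 0.28, interval −0.95 to 0.14, limma adjusted p = 0.754), and 0.07 without Notch2 cKO Em4. Notch1 cKO against WT gave 0.20 (SE 0.34, limma adjusted p = 1), and −0.10 without WT Em2.

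Downstream of Meg3 in the same domain, the non-coding Mirg gave 13.1 and 19.3 RPKM in the WT libraries, 20.3 in the Notch1 cKO group, and 18.0 and 9.55 in the Notch2 cKO group, a pattern like that of Meg3. Rian, which lies between them, ranged from 7.34 (WT Em2) to 12.8 RPKM (Notch2 cKO Em3) and read 10.8 in Notch2 cKO Em4, close to WT Em4 (11). The imprinted non-coding genes tested numbered 6, and 5 of them (H19, Meg3, Mirg, Airn and Kcnq1ot1) were lowest in Notch2 cKO Em4, which was the lowest library for 19.9% of all genes. Kcnq1ot1, on chromosome 7, ranged from 4.68 to 10.3 RPKM. Mirg, Rian, Airn, Kcnq1ot1, Usp29 and Zim1 and the grouping as non-coding were picked after their values were seen, so the count is a description. Of all 30 other imprinted genes tested, coding or not, 8 were lowest in Notch2 cKO Em4 and 10 were highest there (19.9% and 33.3% of all genes). WT Em2 was the lowest library for 11 of the 30 (41.5% of all genes).

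Promoter windows of Plagl1, Peg3 and Meg3 are shown as examples. Notch2 cKO Em4 was the highest library for the first pair of genes and the lowest for Meg3. It was also the highest for Mest and Ndn, whose windows are not shown. The windows run from 250 bases before to 50 bases after the start (RefSeq, GRCm38.p6), written along the gene's own strand. Capitals mark the E-box CANNTG, the site of basic helix-loop-helix factors such as MyoD and myogenin, and TGACGTCA, the site of CREB-type factors. TGACGTCA was added to the search after the windows were read.
Plagl1 promoter, chr10:13090582-13090881, plus strand: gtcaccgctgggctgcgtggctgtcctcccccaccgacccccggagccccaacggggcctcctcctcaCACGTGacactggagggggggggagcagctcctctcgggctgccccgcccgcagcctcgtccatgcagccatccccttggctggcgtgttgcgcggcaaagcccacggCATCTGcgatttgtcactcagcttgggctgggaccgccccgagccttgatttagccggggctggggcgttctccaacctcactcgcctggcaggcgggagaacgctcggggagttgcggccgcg
Peg3 promoter, chr7:6730370-6730669, minus strand: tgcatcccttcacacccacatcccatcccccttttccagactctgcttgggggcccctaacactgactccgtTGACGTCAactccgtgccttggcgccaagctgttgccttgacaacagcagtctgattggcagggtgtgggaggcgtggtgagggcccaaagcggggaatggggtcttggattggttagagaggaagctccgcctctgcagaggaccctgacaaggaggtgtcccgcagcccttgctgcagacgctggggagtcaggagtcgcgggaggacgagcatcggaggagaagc
Meg3 promoter, chr12:109540746-109541045, plus strand: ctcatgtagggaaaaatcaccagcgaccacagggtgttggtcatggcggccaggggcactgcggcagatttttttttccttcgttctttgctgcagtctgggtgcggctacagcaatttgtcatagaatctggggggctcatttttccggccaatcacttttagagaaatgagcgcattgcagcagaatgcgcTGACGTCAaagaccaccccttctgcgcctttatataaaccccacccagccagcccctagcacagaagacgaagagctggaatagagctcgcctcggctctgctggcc
The Plagl1 window holds 2 E-boxes and no TGACGTCA, whereas the Peg3 window and this Meg3 window each hold 1 TGACGTCA and no E-box. Another Meg3 window, not shown, holds 1 E-box and no TGACGTCA. On either strand, TGACGTCA was in 1.79% of the 32851 promoter windows of the table. It was in 2 of the 16 windows of the 9 members that the table covers (Meg3 and Peg3). CANNTG was in 9 of the 16 windows, from 6 of the 9 members, and in 72.3% of all windows. Its form CAGCTG, which is counted within CANNTG, was in 1 window, of Mest (16.3% of all). TGGGAA, the core of the site of the Notch effector RBPJ, was in 6 of the 16 windows, those of Igf2, Meg3, Mest and Ndn (25.6% of all). The consensus site of PLAGL1 was in none (0.0852% of all). A window with several starts gives a gene more chances of a match, and the 9 members have 16 windows.

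Mest and Ndn varied least in pattern from each other. Mest, which encodes an enzyme-like protein of the alpha/beta hydrolase fold (ENSMUSG00000051855.15, chromosome 6, 30723547 to 30748465, plus strand), read 595 and 739 RPKM in the WT pair, 719 in the Notch1 cKO library, and 619 and 836 in the Notch2 cKO pair. Its highest library was 1.41 times its lowest, the narrowest range of the 10 genes, and the groups overlapped. The log2 fold change was 0.12 in both knockouts against WT (SE 0.31 in Notch2 cKO and 0.38 in Notch1 cKO, limma adjusted p = 0.949 and 1). In Notch2 cKO it was −0.05 with median-of-ratios scaling, −0.04 without WT Em2 and −0.10 without Notch2 cKO Em4, and in Notch1 cKO it was −0.04 without WT Em2. Copg2, which overlaps the 3′ end of Mest on the other strand by 912 bases, gave 7.14 and 9.01 RPKM in the WT libraries, 7.47 in the Notch1 cKO group, and 11.1 and 16.4 in the Notch2 cKO group.

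Ndn, which encodes necdin, a MAGE-family protein that promotes the differentiation of myoblasts (ENSMUSG00000033585.5, chromosome 7, 62346569 to 62350262, plus strand), measured 115 and 154 RPKM in WT, then 131 in the Notch1 cKO library and 122 and 176 in the Notch2 cKO libraries. The Notch1 cKO library and Notch2 cKO Em3 lay between the WT libraries. The log2 fold changes were 0.14 (SE 0.27, limma adjusted p = 0.925) and −0.03 (SE 0.33, limma adjusted p = 1) in Notch2 and Notch1 cKO against WT. The first was −0.03 with median-of-ratios scaling, −0.08 without WT Em2 and −0.13 without Notch2 cKO Em4, and the second was 0.19 without WT Em4. Gm32061, a non-coding gene on the other strand, covers all 3694 bases of Ndn in the annotation.

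Within a library, paired genes can be compared without the scaling of that library. H19 minus Igf2, on the log2(RPKM + 1) scale, was 1.48 and 1.72 in WT, 1.28 in the Notch1 cKO library and 1.37 and 0.78 in the Notch2 cKO pair. The difference was smaller in all 3 knockout libraries than in both WT libraries. In RPKM, H19 stood at 2.80 and 3.30 times Igf2 in WT and at 1.73 times in Notch2 cKO Em4. Meg3 minus Dlk1 was −2.63 and −2.61 in WT, −2.95 in the Notch1 cKO library and −2.74 and −3.95 in the Notch2 cKO pair. This difference too was farther below 0 in all 3 knockout libraries than in WT, with Notch2 cKO Em4 far from the rest. Notch2 cKO minus WT, as a difference of means, was −0.52 for the first pair and −0.73 for the second, and Notch1 cKO minus WT was −0.32 and −0.33. The Notch2 cKO libraries themselves had SDs of 0.42 and 0.85 (n = 2). These pair differences were given as values and not tested. For the 2 Notch2 cKO against the 2 WT libraries, no exact permutation p below 0.33 is possible. How many pairs of other genes separate the knockout and WT libraries in this way was not counted. Igf2 minus Igf2r was 4.29 and 4.02 in WT, 4.41 in the Notch1 cKO library and 3.96 and 4.07 in the Notch2 cKO pair, with overlap between the WT and Notch2 cKO libraries.

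**Figure D4:**
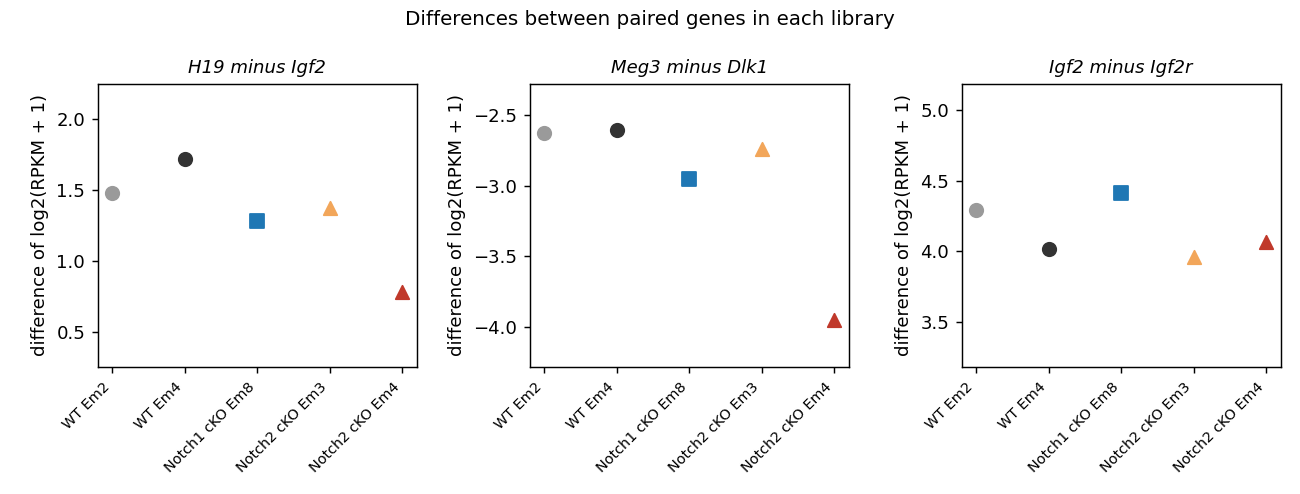
Difference of log2(RPKM + 1) between H19 and Igf2, Meg3 and Dlk1, and Igf2 and Igf2r in each library. Each symbol is a single library, and the 3 vertical axes cover the same span around different centres. For the first 2 pairs all knockout libraries lie below both WT libraries, and Notch2 cKO Em4 is lowest at 0.78 and −3.95. This separation was not tested.

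The digits that end the column names are shared by Notch2 cKO Em4 and WT Em4, and by Notch2 cKO Em3 and Notch1 cKO Em8. Their meaning was not stated in the labels. Between the first pair, Notch2 cKO Em4 minus WT Em4 was 1.06 for Plagl1, 0.71 for Peg3, −1.35 for H19 and −1.19 for Meg3, against a median of 0.03 over the genes tested. Between the Notch2 cKO libraries, Em4 minus Em3 was 0.83, 0.69, −0.73 and −0.96 for the same genes, against a median of −0.01. These genes were picked from the members with Notch2 cKO Em4 as their highest or lowest library, which fixes the signs. Mest and Ndn, also highest there, had smaller gaps. Notch2 cKO Em4 minus WT Em4 was 0.18 and 0.19 for them, and Em4 minus Em3 was 0.43 and 0.53. Between the other pair with shared digits, Notch2 cKO Em3 minus Notch1 cKO Em8 was −0.60 for H19, −0.13 for Meg3, −0.70 for Igf2, 0.24 for Peg3 and 0.07 for Plagl1, against a median of 0.13. Each of these is a single pair of libraries with no replicate. No WT library shares its digits with Notch1 cKO Em8. With the digits as a term in the fit, Notch1 cKO against WT gave −0.40 for H19, −0.75 for Meg3 and 0.50 for Ndn. Each was of the other sign than without it. Both WT libraries were read as having the same digits, so this fit adds Notch2 cKO Em4 minus Em3 to each Notch1 cKO value. These values thus rest on the gap between the Notch2 cKO libraries as well.

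Centred over the 5 libraries, the profiles of the 10 genes fell into 5 mutual nearest pairs by root mean square difference of log2(RPKM + 1): Mest and Ndn (0.08), Dlk1 and Grb10 (0.13), Plagl1 and Peg3 (0.14), H19 and Meg3 (0.16), and Igf2 and Igf2r (0.17). H19 and Plagl1 were the farthest apart, at 0.87. Among 5743 genes averaging 10 RPKM or more, the nearest were Ddx17 for H19 (0.085), Loxl2 for Igf2 (0.077), Ptprs for Igf2r (0.025), 1110065P20Rik for Dlk1 (0.066) and Ubqln2 for Meg3 (0.039). For the rest they were Hexa for Mest (0.022), Ext1 for Grb10 (0.026), Usp19 for Peg3 (0.045), Lysmd3 for Plagl1 (0.056) and Map2k3 for Ndn (0.022). Each of these genes, none of them a member, was nearer than the paired member. Many genes came close for some members and few for others: 168 genes lay within 0.1 of Mest and 150 within 0.1 of Ndn, but 4 of Plagl1 and 1 of H19.

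Beyond the 10 genes, a list of 46 other imprinted genes had 30 genes tested. In Notch2 cKO against WT 19 of 30 were above 0 and 0 passed, with a median log2 fold change of 0.11 beside 0.14 for all genes and 0.13 for the 10 members. In Notch1 cKO against WT 18 of 30 were above 0 and 0 passed, with a median of 0.05 beside 0.01 for all genes and 0.31 for the members. The most abundant was Cdkn1c, which encodes the cell-cycle inhibitor p57 and ranked 3 among all genes tested. It read 6548 and 7339 RPKM in the WT pair, 7246 in the Notch1 cKO library, and 7349 and 7493 in the Notch2 cKO pair (log2 fold changes 0.10 and 0.06, limma adjusted p = 0.971 and 1). Gnas, the gene of a stimulatory G protein, ranged from 440.4 to 645 RPKM, Commd1 from 284 to 476, Nnat from 247 to 290.0 and Sgce, the gene of epsilon-sarcoglycan, from 37.5 to 57.2, none of them past the threshold. The smallest p values in Notch2 cKO against WT were those of Copg2 (log2 fold change 0.69, limma adjusted p = 0.569), Impact (0.42, adjusted p = 0.758) and Trappc9 (0.44, adjusted p = 0.778), and in Notch1 cKO those of Phlda2 (−0.61), Sgce (0.49) and Ppp1r9a (0.45), each with an adjusted p of 1.

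The IGF pathway list holds 38 genes, of which 29 were tested. Over all genes tested, the median log2 fold change was 0.14 in Notch2 cKO and 0.01 in Notch1 cKO against WT. The share of all genes above 0 was not counted. In Notch2 cKO against WT 21 of 29 were above 0 and 0 passed (median 0.13), and in Notch1 cKO against WT 21 of 29 were above 0 and 0 passed (median 0.18). Igf1, the other IGF ligand, gave 4.10 and 6.50 RPKM in the WT libraries, 15.4 in the Notch1 cKO group, and 8.77 and 7.66 in the Notch2 cKO group. It was highest in the same library as Igf2 but did not pass (log2 fold change 1.41, SE 0.39, limma adjusted p = 0.185). Among the binding proteins, Igfbp6 measured 2.26 and 4.82 RPKM in WT, then 11.8 in the Notch1 cKO library and 6.96 and 6.59 in the Notch2 cKO libraries (Notch1 cKO log2 fold change 1.56, SE 0.40, limma adjusted p = 0.131; Notch2 cKO 0.84, adjusted p = 0.455). Igfbp7 read 36.8 RPKM in the Notch1 cKO library and 12.8 to 20.5 in the other libraries (log2 fold change 0.92, limma adjusted p = 1). The sum of the interstitial fibroblast markers given above was also high in Notch1 cKO Em8 (456 RPKM against 208 and 350.3 in WT). This sum, led by Col3a1, was as high in Notch2 cKO Em4 (468 RPKM), where Igf1 read 7.66, Igfbp6 6.59 and Igfbp7 19.9 RPKM. Over both Notch2 cKO libraries, 2 of 14 fibroblast markers tested were above 0 relative to Notch1 cKO (median log2 fold change −0.18 beside 0.12 for all genes). Their part in the values of Igf1, Igfbp6 and Igfbp7 was not tested.

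The more abundant binding proteins Igfbp3 (145 to 219 RPKM), Igfbp2 (120.0 to 219), Igfbp4 (49.1 to 85.7) and Igfbp5 (30.2 to 56.9) and the kinase gene Akt1 (60.7 to 129.9) did not pass in either comparison. Stc2 (0.56) and the adaptor gene Shc1 (0.57) had the next smallest p values in Notch2 cKO against WT, with limma adjusted p = 0.695 and 0.697. Of the receptors that bind IGF2 and signal, Igf1r read 8.78 and 11.4 RPKM in the WT pair, 12.7 in the Notch1 cKO library, and 11.6 and 5.20 in the Notch2 cKO pair. Insr, the insulin receptor gene, gave 3.23 and 4.56 RPKM in the WT libraries, 5.56 in the Notch1 cKO group, and 3.89 and 2.49 in the Notch2 cKO group. For both, Notch2 cKO Em4 was the lowest library, and neither passed (limma adjusted p = 0.837 and 0.893 in Notch2 cKO against WT). This pair of receptors was named after its values were seen.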

How the data were processed

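SMART-Seq v4 libraries of the sorted cells were sequenced as paired ends, per the labels' protocols. The authors deposited RPKM values for 27179 rows and 5 libraries. The tool bcl2fastq (2.20.0) and the build mm10 appear in the submitters' processing notes, with aligner, counter and annotation not given in the sources used here. The 1306 rows without a gene name, 2.19% to 3.07% of the summed RPKM of a library, were left out.

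Each comparison used limma 3.58.1 in R 4.3.3 (lmFit, eBayes with a trend) on log2(RPKM + 1), all 5 libraries and 11543 genes averaging 1 RPKM or more, with two-sided p-values adjusted by Benjamini-Hochberg. That scale understates changes of low genes. The fit was tested on simulated data. Library totals were recovered from the steps between RPKM values: at these totals 97.7% of 8488 gene lengths were whole bases within 0.02, and all genes tested gave whole reads within 0.01. Reads carry no molecular identifiers, so depth covers counting error only.

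Alternatives were pseudocounts of 0.1 and 0.5, no filter or a mean of 5 RPKM, median-of-ratios or quantile scaling, removal of the trend with gene length, voom on recovered reads, the column digits as a term, and leaving out each library. The genes and lists were chosen with earlier results of these data known. Named genes were the members, their nearest profile, and of the other imprinted and IGF lists the most abundant and those of smallest p. Genes of these lists past the threshold were also to be named, and none passed. From the marker lists for other cell types the most abundant gene was named, and those past the threshold were only counted. Further genes, such as Igf1r, Insr, Rian, Mirg, Airn, Kcnq1ot1, Usp29 and Zim1, were named outside this rule. Gene positions are from GENCODE M21 on GRCm38, which may not be the authors' annotation.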

Additional observations from a re-analysis of the deposited data

How the results depend on the processing

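No member passed the threshold under any alternative run, in any comparison (smallest limma adjusted p 0.058), and 367 of 400 member values kept their direction. Part of those 400 values could not turn. A changed filter, or leaving out a library outside the comparison, leaves a member's fold change as it was. The digits term repeats the fold changes without Notch2 cKO Em3 (Notch2 cKO against WT) or without Notch2 cKO Em4 (Notch2 cKO against Notch1 cKO). Each alternative value below is a count of genes passing or a log2 fold change, and the cause of each shift was not tested. Genes passing in Notch2 cKO against WT numbered 62, but 0 with no filter (1693 at an unadjusted p under 0.05), 33 at a mean of 5 RPKM, 26 with median-of-ratios scaling, 4 with quantile normalization, 1 with the gene length trend removed and 1 with voom. Leaving out 1 library gave 13 (without WT Em2) to 278 (without WT Em4). Of the 278, 46 were higher and 232 lower, against 41 and 21 with all libraries. In Notch1 cKO against WT the count was 8, but 15 at a pseudocount of 0.1, 0 with no filter (722 unadjusted), 1 with quantile normalization, 0 with the length trend removed (291 unadjusted), 3 with voom, 29 with the column digits as a term, and 1 (without WT Em4) to 6 with 1 library left out. In Notch2 cKO against Notch1 cKO it was 56, but 0 with no filter (1710 unadjusted), 32 with median-of-ratios scaling, 13 with quantile normalization, 0 with the length trend removed (910 unadjusted), 14 with voom and 31 with the digits, and 39 to 59 with 1 library left out. Its 32 higher and 24 lower calls became 17 and 39 without WT Em4 and 22 and 37 without WT Em2.

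Direction turned as follows in Notch2 cKO against WT. Median-of-ratios scaling gave Igf2r −0.13, Mest −0.05 and Ndn −0.03, quantile normalization Igf2 0.02 and Igf2r −0.18, length trend removal Igf2r −0.01 and Mest −0.13, and the digits Igf2r −0.10. With 1 library left out, Igf2 ran from −0.34 to 0.11, Igf2r from −0.33 to 0.38, Meg3 from −0.89 to 0.07, Mest from −0.10 to 0.33 and Ndn from −0.13 to 0.40. In Notch1 cKO against WT Ndn was 0.02 with quantile normalization and 0.01 with length trend removal, and the digits gave H19 −0.40, Meg3 −0.75 and Ndn 0.50. With 1 library left out, H19 ran from −0.01 to 0.68, Meg3 from −0.10 to 0.50, Mest from −0.04 to 0.27, Peg3 from −0.22 to 0.42 and Ndn from −0.24 to 0.19. In Notch2 cKO against Notch1 cKO Mest was −0.12 with median-of-ratios scaling, −0.27 with length trend removal and −0.22 with the digits, Dlk1 was 0.01 with quantile normalization and Ndn −0.10 with the digits. With 1 library left out, Mest ran from −0.22 to 0.22 and Ndn from −0.10 to 0.42. With the length trend removed, Meg3 minus Dlk1 was −0.51 in Notch2 cKO and −0.39 in Notch1 cKO relative to WT, and Igf2 minus Igf2r was −0.34 in Notch2 cKO.

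No paired analysis was possible because the columns of the deposited table carry no replicate number. The digits of the column names, whose meaning was not stated, entered as a term in place of one. The planned count model on recovered reads (edgeR) was not run, and voom on the same reads was run in its place. With the digits as a term, Notch2 cKO against WT rests on Notch2 cKO Em4 and the WT libraries, because WT Em2 was read as sharing the digits of WT Em4. For the same reason, Notch1 cKO against WT then carries the difference between the Notch2 cKO libraries, Em4 minus Em3.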
